A study of Mus musculus with 24 samples.

Results

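The transcripts of Dbp, Tef, Hlf and Nfil3 were followed over time in a mouse hepatocyte line, MMH-D3, whose cells are immortalized, after a serum shock, the pulse of serum used to align circadian clocks in culture. Dbp, Tef and Hlf encode the PAR bZIP transcription factors, and Nfil3 (also called E4BP4) encodes a related bZIP repressor. All probe sets whose platform annotation gave one of these symbols alone were taken, which were 8 of 45101 on the array, for 4 of the 18193 genes named there by a symbol of their own: 2 for Dbp, 3 for Tef, 2 for Hlf and 1 for Nfil3. Of the 8, 5 passed a filter of log2 5 in at least 6 of the 24 arrays, which 18526 probe sets passed in all. No probe set named one of the 4 genes together with another gene.

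The series holds 24 arrays, 1 per time point, taken every 2 h from 12 to 58 h after the shock. Per the labels, the confluent cells had been differentiated for 14 days in growth medium with 2% DMSO, and every sample, the earliest included, had received the serum shock. There was no unshocked sample, no untreated control and no replicate. Whether each sample was a culture of its own is not stated. All levels below are log2 GCRMA values, so a difference of 1 is a doubling. The only error available was the scatter of the 24 arrays about a fitted curve, which may be technical in part.

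PAR bZIP factors bind D-box elements and activate genes of liver metabolism and detoxification, while NFIL3 binds the same elements and represses. In liver, Dbp is transcribed under direct control of the circadian activators CLOCK and BMAL1 through E-boxes, and Nfil3 is repressed by the REV-ERB nuclear receptors. The PAR bZIP transcripts and Nfil3 are known there for peaking at nearly opposite times of day.

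The promoters of the 3 genes whose transcripts were measured are shown because E-boxes, D-boxes and the REV-ERB receptors are named above. Each is the 250 bases before a transcription start in RefSeq (GRCm38.p6), written 5′ to 3′ on the gene's strand, with any match in capitals. The windows lie at chr7:45704997-45705246 (+ strand) for Dbp, at chr15:81802423-81802672 and chr15:81811164-81811413 (+ strand) for the starts of Tef, and at chr13:52981040-52981289 (- strand) for Nfil3.
Dbp: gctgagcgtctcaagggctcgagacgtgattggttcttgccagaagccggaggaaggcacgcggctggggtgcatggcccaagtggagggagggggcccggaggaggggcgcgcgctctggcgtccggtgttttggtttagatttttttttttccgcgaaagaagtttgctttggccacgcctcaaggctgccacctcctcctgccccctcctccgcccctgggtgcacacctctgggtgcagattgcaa
Tef, start 1: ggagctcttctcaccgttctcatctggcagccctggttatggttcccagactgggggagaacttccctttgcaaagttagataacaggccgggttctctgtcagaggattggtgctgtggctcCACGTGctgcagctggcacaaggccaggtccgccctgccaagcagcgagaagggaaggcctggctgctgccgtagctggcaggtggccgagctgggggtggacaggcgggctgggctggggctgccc
Tef, start 2: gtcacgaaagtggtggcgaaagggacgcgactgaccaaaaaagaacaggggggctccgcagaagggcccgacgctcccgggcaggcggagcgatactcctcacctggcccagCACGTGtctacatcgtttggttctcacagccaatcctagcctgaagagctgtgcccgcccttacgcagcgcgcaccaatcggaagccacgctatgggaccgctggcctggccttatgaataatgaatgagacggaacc
Nfil3: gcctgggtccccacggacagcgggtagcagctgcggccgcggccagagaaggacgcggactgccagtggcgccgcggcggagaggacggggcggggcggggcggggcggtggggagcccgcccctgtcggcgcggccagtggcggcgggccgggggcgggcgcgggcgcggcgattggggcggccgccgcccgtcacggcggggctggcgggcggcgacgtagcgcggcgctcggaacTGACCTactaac
Both strands were searched for the E-box CACGTG, the D-box TTATGTAA and the nuclear receptor motif AGGTCA. The last was searched as 6 letters alone, without flanking bases, so a match is not as such a REV-ERB site. No matches overlapped. Both Tef windows held 1 E-box, at 127 to 122 bases before start 1 and at 138 to 133 bases before start 2. The Nfil3 window held 1 nuclear receptor motif, on the opposite strand as TGACCT, at 12 to 7 bases before the start. The Dbp window held none of the 3 motifs. Of 32851 RefSeq windows of the same length, 6.02% held the E-box, 0.819% the D-box and 14% the nuclear receptor motif. A match is a run of letters and was not tested as a site, and the Dbp result says only that these letters are not in this window.

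The array at 40 h stood apart in technical values, and this touches Tef and Nfil3 below. Its median over the kept probe sets was the lowest, 8.96, against up to 9.14 at 46 h, and its share of values at the table's lowest value was 39.4%, against up to 42.1% at 46 h. The array at 18 h, where Dbp was highest and Nfil3 next to lowest, had the next lowest share, 39.6%. By the median correlation with the other arrays, that at 40 h did not stand apart (0.983). The lowest were those at 12 h (0.972) and 14 h (0.974). The description label of the 40 h sample also carries a suffix, _2, that no other sample has, and what it stands for is not stated. Of the hepatocyte markers, 7 of the 10 on the array were kept (Alb averaged 15.97 and Hnf4a 11.93). The means of Apoa2, Apoh and F2 were 2.17 to 2.31. All 5 fetal liver and bile duct markers on the array were kept as well, with Krt19 at 15.4 and Afp at 11.9. None of 7 fibroblast and stellate cell markers and none of 5 endothelial markers was kept, and Col1a2, Lum, Pdgfrb, Pecam1 and Tek sat at the table's lowest value on all 24 arrays. Of 5 macrophage markers 2 were kept, Cd68 at a mean of 6.15 and Csf1r at 5.36. Neither was called rhythmic, rising or falling, but the fitted linear change of Cd68 was 1.34 (limma, adjusted p = 0.0524). Clec4f was at the lowest value on every array.

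Hlf was at the floor of the table. Both of its probe sets, 1434735_at and 1434736_at, read 2.17 on 24 of 24 arrays. This is the table's lowest value, shared by 41.2% of all its values, so Hlf has only an upper bound and no time course here. The third Tef probe set, 1438033_at, also stayed below log2 5 on all 24 arrays, between 2.17 and 3.32, and repeated the value 2.46 on 17 of them. The other 5 probe sets of Dbp, Tef and Nfil3 stayed above log2 5 on every array.

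**Figure D1:**
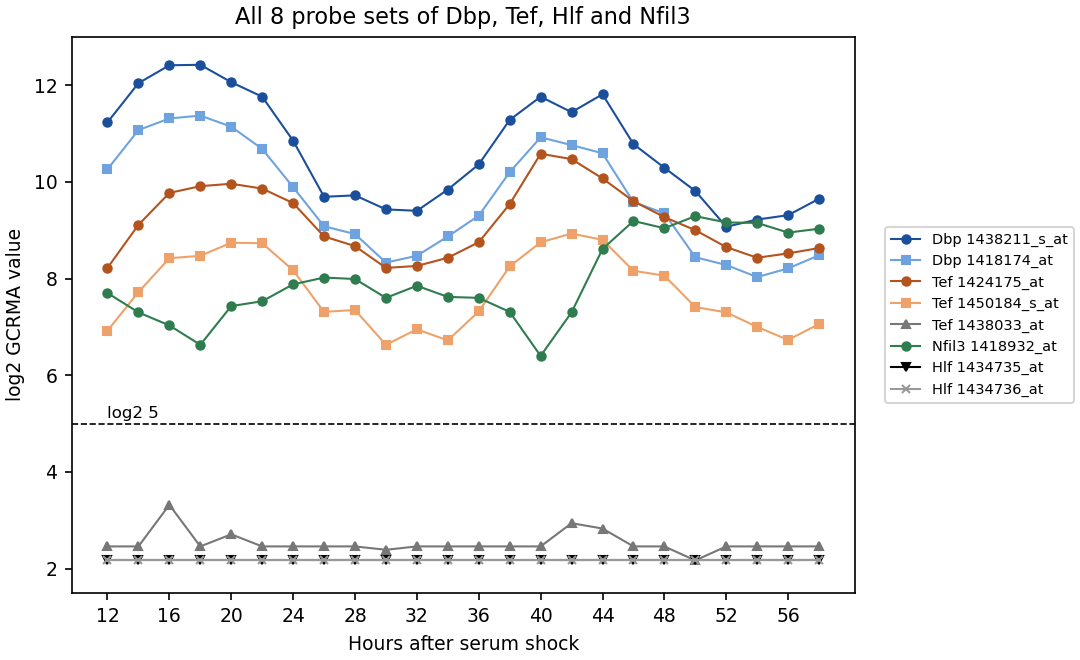
log2 GCRMA value (y axis) against hours after serum shock (x axis) for all 8 probe sets, 1 point per array. The 4 upper Dbp and Tef probe sets trace 2 waves, Nfil3 sits at 8.61 or above from 44 h on, and the 2 Hlf probe sets lie flat at 2.17 with 1438033_at of Tef just above them.

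Dbp, the PAR bZIP activator named for binding the albumin promoter D element, cycled with the largest amplitude of the members, and its level was lower in the second cycle. From 12 to 34 h, probe set 1438211_s_at read 11.23, 12.04, 12.41, 12.42, 12.06, 11.76, 10.85, 9.69, 9.72, 9.43, 9.40 and 9.84. From 36 to 58 h it read 10.36, 11.28, 11.76, 11.44, 11.81, 10.78, 10.29, 9.81, 9.07, 9.22, 9.31 and 9.65. The highest array was thus that at 18 h, the lowest that at 52 h, and each of the 4 arrays from 14 to 20 h was higher than any of the second day. The span from the lowest to the highest array was 10.3-fold.

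The other Dbp probe set, 1418174_at, followed the same course on its own scale. From 12 to 34 h it read 10.26, 11.07, 11.31, 11.37, 11.14, 10.68, 9.89, 9.08, 8.92, 8.33, 8.47 and 8.87. From 36 to 58 h it read 9.30, 10.20, 10.92, 10.76, 10.59, 9.58, 9.35, 8.44, 8.28, 8.03, 8.21 and 8.48. Its highest array was also that at 18 h, its lowest that at 54 h, and its span was 10.1-fold.

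The fitted 24 h curve of Dbp had an amplitude, the height of the cosine above its mean, of 1.33 ± 0.066 (SE) for 1438211_s_at and 1.30 ± 0.057 for 1418174_at. These are peak to trough ratios of 6.30 and 6.08. The fitted peak fell at 17.8 ± 0.176 h and 17.9 ± 0.154 h after the shock, and again a day later. Both rhythms passed the test (limma moderated F, Benjamini-Hochberg adjusted p = 1.64e-11 and 1.64e-12). With the linear part removed, the 24 h cosine held 94.8% and 96.1% of the variance, and a freely fitted period was 24.05 h (95% interval 23.4 to 24.8) and 23.9 h (23.35 to 24.5).

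Tef (thyrotroph embryonic factor), the second PAR bZIP activator measured, cycled with a smaller amplitude than Dbp. From 12 to 34 h, probe set 1424175_at read 8.22, 9.11, 9.77, 9.91, 9.96, 9.86, 9.56, 8.87, 8.67, 8.22, 8.26 and 8.43. From 36 to 58 h it read 8.75, 9.54, 10.58, 10.47, 10.07, 9.60, 9.27, 9.0, 8.65, 8.43, 8.52 and 8.63. The first wave was a plateau from 18 to 22 h, the second a sharper crest with its highest array at 40 h, and the span over all arrays was 5.14-fold.

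Probe set 1450184_s_at of Tef gave the same picture. From 12 to 34 h it read 6.92, 7.72, 8.42, 8.47, 8.74, 8.73, 8.17, 7.31, 7.35, 6.63, 6.95 and 6.72. From 36 to 58 h it read 7.32, 8.25, 8.75, 8.93, 8.80, 8.16, 8.06, 7.41, 7.30, 7.0, 6.73 and 7.06. The highest arrays were those at 20 h on the first day and 42 h on the second, and the span was 4.93-fold.

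The fitted amplitude of Tef was 1.01 ± 0.072 for 1424175_at and 1.06 ± 0.068 for 1450184_s_at, peak to trough ratios of 4.06 and 4.34. The fitted peaks fell at 18.99 ± 0.260 h and 19.3 ± 0.238 h. Both rhythms passed the test (limma, adjusted p = 1.35e-08 and 1.91e-09). The 24 h cosine held 89.998% and 92.0% of the detrended variance. The free period of Tef was 22.95 h (95% interval 22.2 to 23.7) and 23.25 h (22.5 to 24), so the interval of 1424175_at did not hold 24 h. With that free period its first peak moved to 19.6 h.

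The 4 rhythmic probe sets, 2 of Dbp and 2 of Tef, were 4 of the 5 measured, where 2.59% of all 18526 probe sets were called rhythmic. The median amplitude was 0.08 over all kept probe sets and 0.20 over the 479 called. Among those 479, Dbp ranked 4 and 5 by amplitude, and Tef 9 and 12. By p-value over all kept probe sets, Dbp ranked 1 and 2 and Tef 4 and 5. Both genes are known as strongly rhythmic, so their calls are no independent test of the list. No member was called for a 12 h cycle beside the 24 h one: 0 of 5 were called by limma, as were 0% of all probe sets, with 406 of 18526 at an unadjusted p under 0.05. The unadjusted p was 0.0295 for 1424175_at of Tef and between 0.0512 and 0.708 for the other 4.

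**Figure D2:**
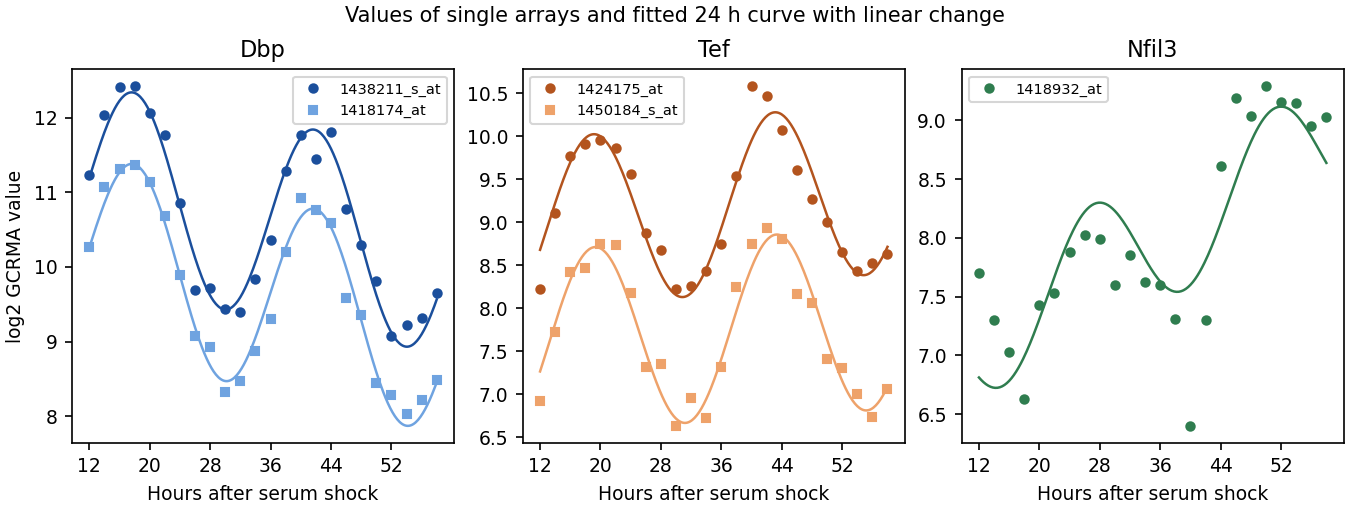
log2 GCRMA values of single arrays (points) and the fitted 24 h curve with a linear change (lines) against hours after serum shock, in 1 panel per gene. The points of Dbp (amplitude 1.33 and 1.30) and Tef (1.01 and 1.06) follow their curves, while those of Nfil3 (0.57) leave theirs, with the arrays from 44 h on at 8.61 to 9.29.

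Dbp peaked before Tef. The difference between fitted peaks was 1.17 h (95% interval 0.50 to 1.84) from 1438211_s_at of Dbp to 1424175_at of Tef, and 1.10 h (0.58 to 1.62) from 1418174_at of Dbp to the same Tef probe set. To 1450184_s_at of Tef it was 1.44 h (0.85 to 2.03) and 1.37 h (0.92 to 1.82). All 4 intervals lay above 0. Leaving out each array in turn, the first of these differences ranged from 1.02 to 1.38 h. Within a gene the intervals held 0: the peaks of the Dbp probe sets differed by 0.07 h (-0.25 to 0.39) and those of the Tef probe sets by 0.27 h (-0.12 to 0.66).

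Tef also had the smaller amplitude. From 1438211_s_at to 1424175_at the amplitude differed by -0.32 on the log2 scale (95% interval -0.53 to -0.11), and over the other 3 pairs by -0.29, -0.27 and -0.24. All 4 intervals lay below 0. These intervals come from the scatter of the same 24 arrays, which all the probe sets share. On the single arrays, the first-day high of 1438211_s_at of Dbp was at 18 h and that of 1424175_at of Tef at 20 h. On the second day they were at 44 h and 40 h, in the opposite order. For 1418174_at of Dbp and 1450184_s_at of Tef, the highs were at 18 h and 20 h, then at 40 h and 42 h. The order on the second day thus depended on the probe sets compared.

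Nfil3, the related bZIP repressor, had its lowest arrays near the crests of Dbp and Tef, and stood on a plateau late in the series. From 12 to 34 h, probe set 1418932_at read 7.70, 7.30, 7.03, 6.63, 7.43, 7.53, 7.88, 8.02, 7.99, 7.60, 7.85 and 7.62. From 36 to 58 h it read 7.60, 7.31, 6.40, 7.30, 8.61, 9.19, 9.04, 9.29, 9.16, 9.15, 8.95 and 9.03. Its lowest arrays were those at 40 h and 18 h. At 18 h both Dbp probe sets were at their highest, and at 40 h 1424175_at of Tef was. The array at 40 h is the one that stood apart, and its part in these extremes was not tested, but Tef kept its rhythm without it (amplitude 0.95, adjusted p = 3.36e-09).

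Each trough of Nfil3 was followed by a higher stretch, but not to the same level. After 18 h it stood at 8.02 at 26 h, and after 40 h at 9.29 at 50 h. The largest step between neighbouring arrays was 1.31, from 42 to 44 h. The 16 arrays from 12 to 42 h lay between 6.40 and 8.02 and the 8 from 44 to 58 h between 8.61 and 9.29, with no overlap. This division was chosen after the values were seen, and 5.67% of all kept probe sets had all 8 late arrays above the 16 earlier ones. The 8 late arrays of Nfil3 had an SD of 0.21.

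The 24 h rhythm of Nfil3 did not pass the test beside a linear change. Its amplitude was 0.57 ± 0.140 and its fitted peak 27.1 ± 0.897 h (limma, adjusted p = 0.0582, rank 601 of all kept probe sets). The call changed with several choices. It was made after quantile normalization (0.56, adjusted p = 0.0421) and after centring each array (0.57, adjusted p = 0.0438), and also without the arrays from 12 to 18 h (0.75, adjusted p = 0.00289), without that at 12 h (0.60, adjusted p = 0.0305) and without that at 30 h (0.63, adjusted p = 0.0416). Each planned change of the drift term also made the call. The amplitude was 0.81 with no drift term (adjusted p = 0.0347), 0.62 with quadratic drift (adjusted p = 0.0042) and 0.77 with a natural spline (adjusted p = 0.00173). With a step at 44 h in place of the linear change, an alternative added after the values were seen, it was 0.45 (adjusted p = 0.00634). Without the 8 late arrays it was 0.51 (adjusted p = 0.00974). Of 12 settings other than single arrays left out, 8 made the call and 4 did not. Without the array at 40 h the linear fit gave 0.42 (adjusted p = 0.117). The 24 h cosine held 42.0% of the detrended variance, and the interval of the free period ran from 18.5 to 30.25 h.

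The fitted peak of Nfil3 came 9.30 h (95% interval 7.19 to 11.4) after that of Dbp and 8.13 h (6.27 to 9.99) after that of Tef. This describes a rhythm that was not called in the fit with a linear change. Over the 24 arrays the correlation with Nfil3 was -0.66 for Dbp and -0.43 for Tef, and between Dbp and Tef it was 0.78. These points share their arrays and follow one another in time.

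Across the 46 h Dbp fell, Nfil3 rose, and the Tef probe sets differed in the call. The fitted linear change was -0.95 ± 0.156 for 1438211_s_at of Dbp and -1.15 ± 0.134 for 1418174_at (limma, adjusted p = 4.35e-05 and 6.74e-07). Falls made up 2 of the 5 measured probe sets, both of Dbp, against 16.7% of all kept probe sets. For Nfil3 the change was 1.57 ± 0.335 (adjusted p = 0.000694), and for 1424175_at of Tef 0.49 ± 0.172 (adjusted p = 0.0264). Rises thus made up 2 of the 5 probe sets, against 24.9% of all. For 1450184_s_at of Tef it was 0.28 ± 0.164 (adjusted p = 0.179). The median over all kept probe sets was 0.06.

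The rise of Nfil3 rested on the late plateau: without the 8 arrays from 44 to 58 h the linear change, expressed over the same 46 h, was -0.28 (adjusted p = 0.581). The rise of Tef (1424175_at) rested on the start of the series and was larger without its end. Without 44 to 58 h it was 1.21 (adjusted p = 0.000383), and that of 1450184_s_at was then called as well (0.79, adjusted p = 0.0190). The rise of 1424175_at was 0.18 without the arrays from 12 to 18 h (adjusted p = 0.466) and 0.34 without the array at 12 h (adjusted p = 0.105). It also lost its call after quantile normalization (0.41, adjusted p = 0.0765) and after centring each array (0.42, adjusted p = 0.0818). The fall of Dbp kept its call with each of the 24 arrays left out, but its size depended on the arrays and terms used: for 1438211_s_at it was -1.55 without 44 to 58 h, -0.71 without 12 to 18 h and -2.16 with the linear term alone, and for 1418174_at -1.32, -1.02 and -2.32. Hepatocyte markers moved over the same hours, with 4 of the 7 kept falling, 1 rising and a median change of -0.65, where 16.4% of all genes fell, 26.3% rose and the median change was 0.07, and their part in these changes was not tested.

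Because the span held 2 whole cycles, each array of the first day had a partner 24 h later. Dbp was lower on the second day in 11 of 12 pairs for 1438211_s_at and in 12 of 12 for 1418174_at, with mean differences of -0.50 ± 0.371 (SD) and -0.60 ± 0.263. Both passed the test of the second day against the first (limma, adjusted p = 0.000177 and 1.07e-05), where 15.8% of all kept probe sets were called lower. Nfil3 was higher in 10 of 12 pairs by 0.87 ± 0.727 on average (adjusted p = 0.000735), where 24.3% of all were called higher. Its pairs ran from -0.63 at 16 h to 1.66 at 22 h, and each of the 8 pairs that start at 20 h or later was above 1.

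Tef did not pass the test of the second day. 1424175_at was higher in 9 of 12 pairs by 0.22 ± 0.326 (adjusted p = 0.083) and 1450184_s_at in 8 of 12 by 0.14 ± 0.330 (adjusted p = 0.244). The pairs of 1424175_at starting at 12 to 18 h lay between 0.42 and 0.81, and the other 8 between -0.29 and 0.25. For 1450184_s_at the pairs starting at 12 to 18 h lay between 0.34 and 0.52, and the other 8 between -0.58 and 0.38.

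**Figure D3:**
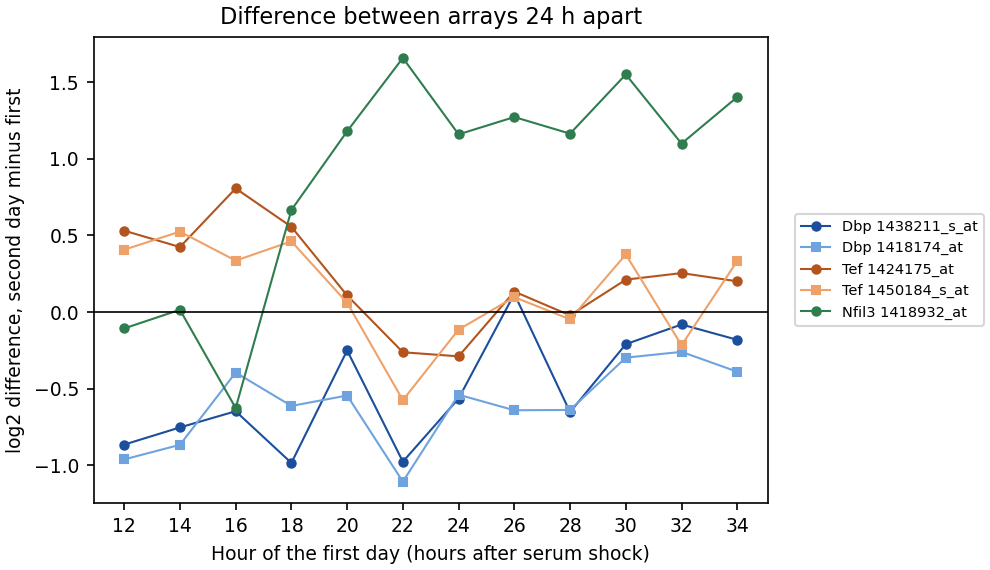
Difference in log2 GCRMA value between arrays 24 h apart, the second day minus the first (y axis), against the hour of the first day (x axis), 1 line per probe set. The Dbp lines lie below 0 in 11 and 12 of 12 pairs, both Tef lines are above 0 up to 20 h, and Nfil3 goes from -0.63 at 16 h to 1.66 at 22 h.

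Fitted separately to the days, with no linear change inside a day, the amplitude of Dbp was 1.63 and 1.34 for 1438211_s_at, and 1.56 and 1.42 for 1418174_at. Its peaks came at 17.7 and 41.8 h, and at 17.8 and 41.7 h. Tef had 0.94 and 0.97 for 1424175_at and 1.05 and 1.01 for 1450184_s_at. The peaks of Tef came at 19.9 and 42.5 h, and at 19.9 and 42.8 h. The lag from Dbp to Tef over the 4 probe set pairs was thus 2.04 to 2.19 h on the first day and 0.69 to 1.10 h on the second, a difference between the days that was not tested. In none of these 4 did the 24 h terms differ between the days by the test (limma, adjusted p from 0.0869 to 0.61). For Nfil3 they did: the amplitude was 0.46 on the first day and 1.18 on the second, with peaks at 28.6 and 51.4 h (adjusted p = 0.0311). This was 1 of the 5 member probe sets measured, where 28.9% of all kept probe sets were called. A step or drift inside a day enters this fit, and the step at 44 h lies inside the second day. The call was lost without the array at 12, 14, 28, 38, 40 or 42 h, with adjusted p from 0.0509 to 0.0687.

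The circadian regulators of these genes cycled in the same cells, and Dbp and Tef took their places among them in time. Of 16 activators and repressors listed, 15 were on the array under a symbol of their own, 10 were kept and 8 were called rhythmic (limma), against 2.77% of the 9825 genes measured. Their median amplitude was 0.67, against 0.08 over all genes. The REV-ERB repressors came first, Nr1d1 with a peak at 15.7 h and an amplitude of 1.51 and Nr1d2 at 17.5 h and 1.02. Bhlhe40, a repressor that binds E-boxes, followed at 18.4 h with an amplitude of 0.26. Then came the period and cryptochrome repressors, Per1 at 20.8 h, Cry2 at 21.1 h, Per2 at 22.3 h and Cry1 at 26.9 h, with amplitudes of 0.41, 0.46, 1.37 and 1.37. The last peak, at 30.1 h with an amplitude of 0.88, was that of Arntl, the gene of the activator BMAL1. Clock and Rora were kept and not called, and Npas2, Per3, Bhlhe41, Ciart and Rorb did not pass the filter.

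Measured from Dbp (1438211_s_at), Nr1d1 peaked 2.08 h earlier (95% interval of the difference -2.84 to -1.32), and the interval of Nr1d2 held 0 (-0.90 to 0.19), as did that of Bhlhe40 (-0.73 to 1.84). Per1 peaked 3.003 h after Dbp (1.53 to 4.47), Cry2 3.23 h (2.50 to 3.96), Per2 4.45 h (3.69 to 5.20) and Cry1 9.12 h (8.30 to 9.94). Arntl was close to antiphase with Dbp, with a peak difference of -11.7 h (-12.9 to -10.5). Measured from Tef (1424175_at), Nr1d1 differed by -3.25 h, Nr1d2 by -1.52 h, Cry2 by 2.06 h and Per2 by 3.28 h, each with an interval that did not hold 0. Measured from Nfil3, the interval of Cry1 held 0 (-1.76 to 1.40), and Arntl peaked 2.96 h later (1.35 to 4.57).

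Most of the kept regulators also had a called linear change over the series. Of the 10 kept, 6 rose over the 46 h and 0 fell (limma, with 0 falls also at an unadjusted p under 0.05), against 26.3% of all genes rising and 16.4% falling. Nr1d1 rose by 1.56, Nr1d2 by 0.92, Arntl by 0.77, Clock by 0.47, Cry2 by 0.45 and Bhlhe40 by 0.44, where Dbp fell by 0.95. Without the arrays from 44 to 58 h, 1 of these 6 rises was called.

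**Figure D4:**
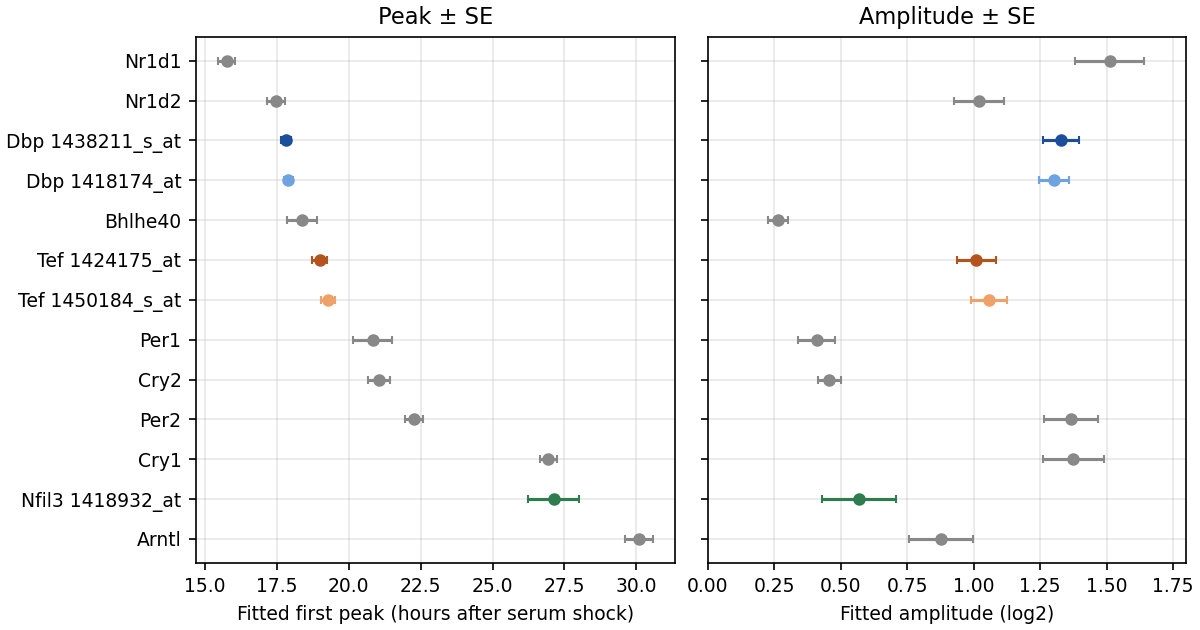
Fitted first peak in hours after serum shock (left) and fitted log2 amplitude (right) of the kept Dbp, Tef and Nfil3 probe sets and the rhythmic regulators, with bars of 1 SE of the fit. Dbp (17.8 and 17.9 h) and Tef (18.99 and 19.3 h) lie between Nr1d1 at 15.7 h and Per1 at 20.8 h, and Nfil3 at 27.1 h lies beside Cry1 at 26.9 h.

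Of 32 liver genes described as targets of these factors, 27 were on the array and 13 kept, where 9825 of all 18193 genes were kept, and 4 of the 13 are clock genes already counted among the regulators (Nr1d1, Per1, Per2 and Cry1). Among the other 9, Acot1, an acyl-CoA thioesterase, was the only gene called rhythmic (amplitude 0.26 ± 0.033, peak 31.4 h, limma adjusted p = 0.00021). The lowest first-day array of Dbp was that at 32 h for 1438211_s_at and that at 30 h for 1418174_at. A relation between Dbp and the peak of Acot1 was not tested. Cyp7a1, the rate-limiting enzyme of classical bile acid synthesis, the drug-metabolizing Cyp2c37, Cyp3a11 and Cyp4a14, and the thioesterase Acot3 were at the table's lowest value on all 24 arrays. Cyp2b10, Cyp2c50 and the nuclear receptor gene Nr1i3 (CAR) averaged 2.18.

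Over time, 1 of these 9 genes rose and 3 fell, where 26.3% of all genes rose and 16.4% fell. Acot2, another thioesterase, rose by 1.5004. The transporter genes Abcb1a and Abcg2 fell by 1.69 and 0.62, and Alb (albumin) fell by 0.34. Alas1 (heme synthesis), Ces2a (a carboxylesterase), Cpt1a (fatty acid import into mitochondria) and Pdxk (pyridoxal kinase) passed neither test, with amplitudes of 0.11, 0.38, 0.05 and 0.13. The rhythm counts depended on the drift term: with quadratic drift, 9 of the 13 targets were called in place of 5, with Abcg2, Acot2, Alas1 and Alb added. The number of falls among the 13 was 5 with quantile normalization or centring, and 2 with no filter or without the arrays from 44 to 58 h. With 1 array left out that number ranged from 2 to 5.

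Other bZIP factors that bind related sites were not called rhythmic in the fit with a linear change. All 9 on the array were kept and 0 were called rhythmic (limma, 1 at an unadjusted p under 0.05), where 2.77% of all genes were. Of the 9, 6 rose and 0 fell (1 fall at an unadjusted p under 0.05), where 26.3% of all genes rose and 16.4% fell. The stress-response factors Ddit3 (CHOP), Atf5 and Atf4 rose by 2.92, 1.85 and 0.92, Cebpg by 1.08, and the liver C/EBP factors Cebpb and Cebpa by 0.55 and 0.26. The rise of Cebpa was near the threshold (limma, adjusted p = 0.046). In many of the fits that left out 1 array, 5 rises were called in place of 6. Without the arrays from 44 to 58 h, 0 of these rises and 2 falls were called, and with quantile normalization or centring 5 rises and 1 fall were. With a spline as drift, Atf4, Atf5, Cebpg and Ddit3 were called rhythmic.

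The genes whose time course was most like that of a member were found by Pearson's r over the 24 arrays among 9825 genes, as a description. For Dbp (1438211_s_at) these were Vamp3 (r = 0.88), Map2k3 (0.87), Hnrnpdl (0.86), Ngef (0.85) and Rdh10 (0.83). The amplitudes of these 5 ran from 0.14 to 0.34, well under that of Dbp, and 4 of them also fell over the 46 h, Rdh10 being the exception. The lowest r with Dbp was that of Cxxc4 (-0.88), followed by Bcor (-0.87), Arntl (-0.86), Pwwp3b (-0.82) and Tmtc3 (-0.80). Vamp3 encodes a vesicle SNARE, Map2k3 a kinase upstream of p38, Rdh10 a retinol dehydrogenase and Bcor a corepressor.

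For Tef (1424175_at) the most alike were Tspan4, a tetraspanin (0.87), the cell cycle kinase gene Wee1 (0.78), Bhlhe40 (0.78), Etv6 (0.76) and Rdh10 (0.75). Tspan4 had a fitted peak of 20.4 h and an amplitude of 0.60. The lowest r with Tef were those of Acot1 (-0.85), Arntl (-0.82), Nek7 (-0.80), Stk24 (-0.78) and Pnrc1 (-0.78). Rdh10 thus stood on the upper list of both PAR bZIP genes and Arntl on the lower list of both.

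For Nfil3 the most alike were Rrm2b (0.95), a ribonucleotide reductase subunit, Dus4l (0.93), Stbd1 (0.93), Tsc22d2 (0.93) and Gtpbp10 (0.92). None of these 5 was called rhythmic (limma, adjusted p from 0.14 to 0.572) and all 5 rose over the 46 h, Stbd1 by 4.65. The lowest were Fbxo9, Pik3ap1, Ugp2, Txn1 and Cd24a, each at -0.93, and all 5 fell. Neither Dbp nor Tef had a list gene in common with Nfil3.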

How the data were processed

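For the 24 Affymetrix arrays the authors deposited log2 values of every probe set in a single table. The submitters' processing notes name GCRMA, which corrects background by probe sequence and normalizes and summarizes the probes; its version and settings, and whether arrays were rescaled further, are not given in the sources used here, and the log2 scale is read from the range of the values. GEO's platform annotation gave 1 symbol for 34958 of 45101 probe sets, several for 932 and none for 9211. After 64 controls were removed, probe sets at log2 5 or more in at least 6 arrays were kept, and the probe set with the highest mean stood for its gene.

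limma 3.58.1 in R 4.3.3 fitted an intercept, a linear change scaled to 46 h, and a cosine and a sine with a period of 24 h. The variance prior followed intensity. P-values were adjusted by Benjamini-Hochberg across all 18526 kept probe sets and called under 0.05. The day tests replaced the linear term by an indicator of 36 to 58 h, and the 12 h test added a second pair of terms. Peak differences carry 95% delta-method intervals from a joint least-squares fit. The scripts were tested on simulated data. The p-values measure the scatter of single arrays about a smooth curve, and precision is limited by how many arrays there are.

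The 4 genes and all gene lists were chosen with earlier results of these data known. The genes named are the members, the rhythmic genes of each list, the 5 of highest and the 5 of lowest correlation with each measured member, and, chosen after their values were seen, list genes that changed or lay at the lowest value. Alternatives varied the drift term, the filter, the scaling, the variance prior, the period, the arrays used and, for the days, a block of hour pairs. Promoters came from the RefSeq table for GRCm38.p6, matched by symbol for all 4 genes. No protein sequence was used here.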

Additional observations from a re-analysis of the deposited data

Results flagged for a closer look

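The 24 h terms of Nfil3 differed between the first and the second day by the test of the difference itself (limma, Benjamini-Hochberg adjusted p = 0.0311), with fitted amplitudes of 0.46 and 1.18. The fit has no drift inside a day, and the second day holds the step of 1.31 between 42 and 44 h.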

How the results depend on the processing

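The rhythm calls of both Dbp and both Tef probe sets held in all 24 fits that left out 1 array and in all 12 other settings, with amplitudes of 1.29 to 1.48 for 1438211_s_at of Dbp and 0.94 to 1.12 for 1424175_at of Tef. For Nfil3 the rhythm was called in 8 of those 12 settings. The number of member probe sets whose 24 h terms differed between the days was 1, and it fell to 0 with no filter on low values. With 1 array left out it ranged from 0 to 2, with 0 without 12, 14, 28, 38, 40 or 42 h and 2 without 36 h. The sign of the linear change turned for 1424175_at of Tef with the linear term alone (-0.32, adjusted p = 0.599) and for Nfil3 without 44 to 58 h (-0.28, adjusted p = 0.581). No other sign of a called change turned. With 1 array left out, the call of the rise of 1424175_at was lost without 12 h, and its second-day difference was called without 46 h (adjusted p = 0.0439). No paired analysis was possible because each time point had 1 array, in the sense of pairing by replicate number. With the 12 pairs of hours 24 h apart as a block in place of the cosine, a setting added after seeing the data, the same 3 probe sets differed between the days (limma, adjusted p = 0.00186 and 6.79e-05 for Dbp and 0.00357 for Nfil3; 0.0711 and 0.27 for Tef). Hlf and 1438033_at lay too near the lowest value for any time course to be read.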
